A study of Mus musculus with 12 samples.

Results

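The genes described here are 10 regulators of the step from G1 into S phase: 5 inhibitors of cyclin-dependent kinases (Cdkn1a, Cdkn1b, Cdkn1c, Cdkn2c and Cdkn2d), the 3 members of the retinoblastoma family (Rb1, Rbl1 and Rbl2) and 2 activating E2F factors (E2f1 and E2f3). They were taken by symbol, and all 10 were found among the 26382 genes that both expression tables hold. They were followed in mural granulosa cells (MGCs, the layers inside the follicle wall) and in cumulus cells (which surround the oocyte), with 3 libraries for each cell type and genotype, 12 in all. Every mouse was given 5 IU eCG at 21 to 23 days of age and hCG 48 h later, and cells were taken at 2 h post-hCG. The control groups are WT mice. The Sphk1/2gc-/- groups are Sphk1-/-; Sphk2 fl/fl; Fshr-Cre mice, in which Sphk1 is lost from all cells while Sphk2 is deleted where Fshr-Cre is active, that is in granulosa cells. Each group was sampled at 1 time only, so that no change over time after hCG was measured. Levels are FPKM, fragments scaled by exon length and by library size, and can be set beside each other between genes.

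Granulosa cells of the growing follicle divide, and the ovulatory LH surge, for which hCG stands in, takes them out of the cell cycle. In G1, cyclin D with CDK4 or CDK6 and then cyclin E with CDK2 phosphorylate the RB proteins, which releases E2F factors to switch on the genes of S phase. The inhibitors of the CIP/KIP family (p21, p27 and p57, from Cdkn1a, Cdkn1b and Cdkn1c) bind cyclin-CDK complexes, whereas those of the INK4 family (p18 and p19, from Cdkn2c and Cdkn2d) bind CDK4 and CDK6. The RB relatives p107 and p130 (from Rbl1 and Rbl2) also form the DREAM complex with the MuvB core, which keeps genes of S phase and of mitosis silent in resting cells. Rbl1, E2f1 and Cdkn2c are themselves known as targets of E2F.

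RefSeq promoter windows (GRCm38.p6, from 250 bases before to 50 bases after a transcript start) were found for 8 of the 10 genes, in 11 windows; Cdkn1c and Rb1 had no entry. They were searched on both strands for E2F letters, TTT followed by CC, CG, GC or GG and then by CGC or CGG. These letters stood in 3 of the 11 windows (27.3%), 1 each of Rbl1, Cdkn2c and E2f3, against 1481 of all 32851 windows (4.51%). The only E2f1 window, chr2:154569377-154569676 on the minus strand, lies inside the gene, whose first base in GENCODE M21 is 154569892. The letters before that base were not searched, so the lack of a match for E2f1 does not speak for them. The 3 windows are shown because they hold the letters by which E2F is known to bind, and because Rbl1 and Cdkn2c fell in cumulus cells while E2f3 did not pass there. Of the 23 windows of E2F target genes of S phase taken up later, 9 held them (39.1%). Capitals mark the E2F letters.
Rbl1, chr2:157204485-157204784, minus strand: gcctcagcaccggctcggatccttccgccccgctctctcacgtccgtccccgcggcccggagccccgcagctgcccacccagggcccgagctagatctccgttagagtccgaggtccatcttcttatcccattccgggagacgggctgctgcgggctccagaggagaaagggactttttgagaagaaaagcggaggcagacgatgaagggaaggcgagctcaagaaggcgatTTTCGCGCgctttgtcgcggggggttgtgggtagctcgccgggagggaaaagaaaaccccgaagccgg
Cdkn2c, the downstream start, chr4:109665323-109665622, minus strand: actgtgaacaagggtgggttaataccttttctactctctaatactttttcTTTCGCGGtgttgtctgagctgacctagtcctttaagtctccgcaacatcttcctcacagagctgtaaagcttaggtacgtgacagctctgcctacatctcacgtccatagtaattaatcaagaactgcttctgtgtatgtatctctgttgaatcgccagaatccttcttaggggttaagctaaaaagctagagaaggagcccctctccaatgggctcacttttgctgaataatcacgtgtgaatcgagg
E2f3, the upstream start, chr13:29986014-29986313, minus strand: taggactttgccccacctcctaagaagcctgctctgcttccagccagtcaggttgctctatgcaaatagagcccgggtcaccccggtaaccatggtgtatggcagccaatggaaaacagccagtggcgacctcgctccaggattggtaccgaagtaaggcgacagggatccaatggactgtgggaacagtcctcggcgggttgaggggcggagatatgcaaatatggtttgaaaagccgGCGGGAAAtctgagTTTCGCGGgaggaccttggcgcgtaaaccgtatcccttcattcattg
The match in Rbl1, TTTCGCGC, began 18 bases before the start, and that in Cdkn2c, TTTCGCGG, 200 bases before it. E2f3 held a match on each strand, at 11 bases before the start (GCGGGAAA) and at position 4 after it (TTTCGCGG). The CHR letters TTTGAA, known from promoters of mitotic genes, were in windows of Rbl2 and E2f3 alone (2 of 11, 18.2%, against 17.9% of all windows). The GC box GGGCGG was in 9 of the 11 windows (81.8%) and in windows of all 8 genes, against 35.7% of all windows. A match is a run of letters and no proof of binding.

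The targeted genes were examined first. In MGCs, Sphk1 was at 1.68, 1.88 and 0.46 FPKM in WT libraries 1, 2 and 3, while Sphk1/2gc-/- libraries 1, 2 and 3 held 0.432, 0.557 and 0.104 FPKM, and the genotypes overlapped in that WT library 3 lay under Sphk1/2gc-/- library 2. The log2 difference was -0.73 (SE 0.298, limma adjusted p = 0.52). Cumulus cells had 7, 6 and 8 reads in the WT libraries but 7, 43 and 51 reads in those labelled Sphk1/2gc-/-, which goes against the label. The latter are therefore called the libraries labelled Sphk1/2gc-/-, and a direction drawn from them rests on that label. Sphk2 was between 0.403 and 0.752 FPKM in all 6 cumulus libraries, with overlapping genotypes. It was between 4.51 and 6.29 FPKM in MGCs, also with overlap (log2 difference -0.07, limma adjusted p = 0.933). Neither targeted gene passed in MGCs over all 6 libraries. Without both libraries numbered 3, Sphk1 passed as lower (-0.9, limma adjusted p = 0.0202), as 16.1% of all genes passed in that fit. Sphk2 did not pass there (-0.23). Exons of Sphk1 overlap Gm29292, and those of Sphk2 overlap Dbp and Rpl18. The paper put LoxP sites around part of Sphk2 and reported loss of its protein in granulosa cells. A level over all exons cannot settle that deletion. The mural genotypes named below also rest on the labels.

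Libraries held 16100359 to 19761603 reads, as recovered from the FPKM steps. The 10 granulosa markers were above 0 in every library (means of log2(FPKM + 1) from 4.79 to 7.78), but not all at high levels. Amh was at 0.102 to 1.9 FPKM in WT cumulus cells against 113 to 174 FPKM in WT MGCs. Of the 10, 7 passed as lower and 1 as higher in WT cumulus cells than in WT MGCs (median -1.91). Among all genes tested there 52.5% were lower and 24.1% higher. The 4 mural markers passed the test as lower in WT cumulus cells than in WT MGCs. Of the 7 cumulus markers, 2 were higher in WT cumulus cells and 3 were lower (median -1.65, 3 differences above 0 and 4 below). Has2 was at 31.9 to 74.6 FPKM in WT cumulus cells against 12.7 to 18.3 FPKM in WT MGCs. Tnfaip6 was at 122 to 282 against 747 to 938 FPKM, and Slc38a3 at 0.341 to 1.66 against 23.6 to 41.6 FPKM. The list summed to 324 to 714 against 1280 to 1530 FPKM, so that as a whole it goes against the cumulus label. WT cumulus library 3 had 27541 genes above 0, the other cumulus libraries 18788 to 19289, and all 5 calls on the 10 genes in cumulus cells held without it. In MGCs, Sphk1/2gc-/- library 3 stood apart. It correlated with the other MGC libraries at r = 0.912 to 0.939, the others among themselves at 0.96 to 0.986, and Ptgs2 was at 24.6 FPKM in it against 268 to 447 FPKM in the others. The 10 most abundant genes took 14.1% of its FPKM, and 19.9% to 24.9% in the other MGC libraries. The MGC differences of the 10 genes are given with and without it. In bulk RNA, fewer cells of a type and less RNA per cell cannot be told apart.

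Levels of the 10 genes differed over a wide range (see the panels of FPKM by group). In WT MGCs the order of the means was Cdkn1a (39.7 FPKM), Cdkn1b (19.7), Rb1 (10.0), E2f3 (7.21), Rbl1 (4.97), Cdkn2c (4.51), E2f1 (3.72), Rbl2 (3.09), Cdkn2d (2.96) and Cdkn1c (1.03 FPKM). The ranges of Rbl1, Cdkn2c and E2f1 overlapped each other in this group, as did those of E2f1, Rbl2 and Cdkn2d. Cdkn1a lay above 96.1% of all genes of the table and Cdkn1c above 57.1%. In WT cumulus cells the order was Cdkn2d (16.1 FPKM), Cdkn1a (12.2), Rb1 (10.1), Rbl1 (7.84), Cdkn2c (4.47), Cdkn1b (3.05), E2f3 (1.15), Rbl2 (0.579), E2f1 (0.282) and Cdkn1c (0.0288 FPKM). Here the ranges of Cdkn2d, Cdkn1a and Rb1 overlapped from neighbour to neighbour, and so did those of Rb1 and Rbl1. The INK4 gene Cdkn2d thus held first place in WT cumulus cells and the ninth in WT MGCs.

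**Figure D1:**
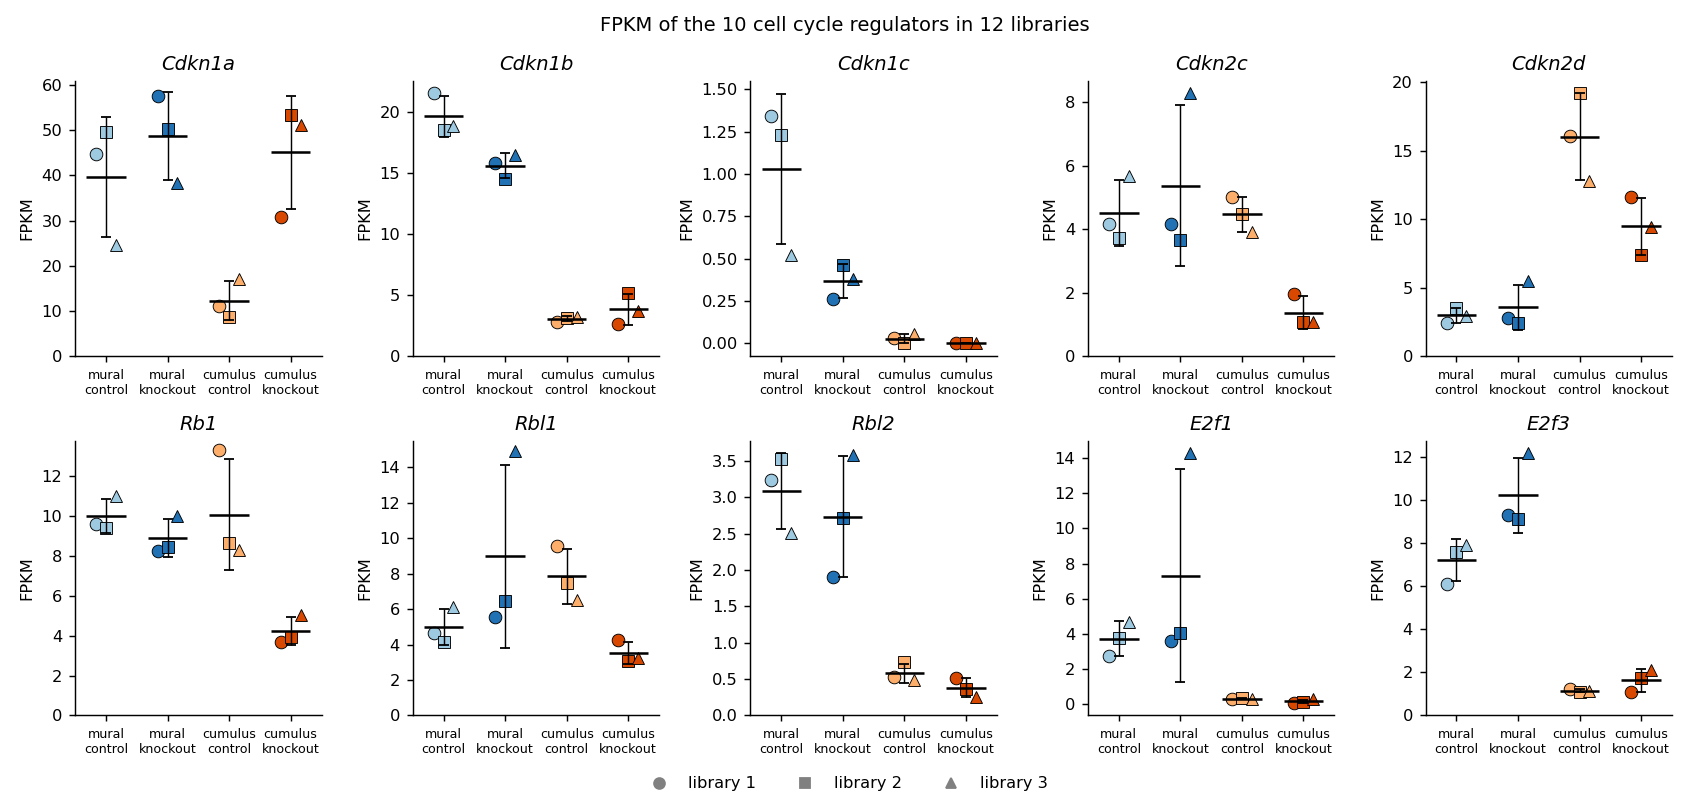
FPKM (y axis, linear) of each of the 10 genes in mural and cumulus libraries of both genotypes; points are libraries 1 to 3, horizontal bars the group mean and error bars the SD (n = 3). Cdkn1a in cumulus cells is at 8.56 to 17.1 FPKM in WT and at 30.8 to 53.4 FPKM in those labelled Sphk1/2gc-/-, and E2f1 and Rbl1 are highest in mural Sphk1/2gc-/- library 3.

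The first comparison asked which of the 10 genes differ between genotypes in cumulus cells. Cdkn1a rose, and Cdkn2c, Cdkn2d, Rb1 and Rbl1 fell in the libraries labelled Sphk1/2gc-/-. The expression filter, a genotype mean no lower than 0.5 FPKM, left 8 of the 10, and 5 of the 8 passed limma, 1 higher and 4 lower. To pass, a gene had to have a p that did not exceed 0.05 after Benjamini-Hochberg adjustment across every gene tested. Over all 12205 genes tested 22.3% passed, 9.66% as higher and 12.7% as lower. A change of 2-fold or more was called for 3 of the 8, Cdkn1a, Cdkn2c and Rb1, against 8.04% of all genes. The groups did not overlap for the 5 genes that passed, against 42.3% of all genes tested. The median log2 difference of the 8 was -0.45, and that of all genes was -0.06.

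Cdkn1a (p21, a target of p53; chromosome 17, 29090976 to 29100727, plus strand) was at 11.1, 8.56 and 17.1 FPKM in WT cumulus libraries 1, 2 and 3 and at 30.8, 53.4 and 51.1 FPKM in those labelled Sphk1/2gc-/-. Every library labelled Sphk1/2gc-/- was above every WT library, and library 1 was the lowest of the former. The means were 12.2 ± 4.36 and 45.1 ± 12.4 FPKM (SD, n = 3), a ratio of 3.7. On the log2(FPKM + 1) scale, which understates changes of low genes, the difference was 1.81 (SE 0.286, limma adjusted p = 0.00497). It stayed past the threshold under every alternative tried, between 1.6 and 2.06. Its exons overlap AC167363.2, and since no strand is stated for the library kit the reads of overlapping genes cannot be told apart.

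The other CIP/KIP genes did not pass. Cdkn1b (p27; chromosome 6, 134920401 to 134925513, plus strand) was at 2.82, 3.1 and 3.21 FPKM in WT and at 2.61, 5.18 and 3.7 FPKM in those labelled Sphk1/2gc-/-, with library 1 below all WT libraries and libraries 2 and 3 above them. The log2 difference was 0.22 (95% interval -0.25 to 0.69, limma adjusted p = 0.46). Cdkn1c (p57; chromosome 7, 143458339 to 143461050, minus strand, with exons that overlap Gm44732) had 1, 0 and 2 reads in WT cumulus libraries and 0 in each of those labelled Sphk1/2gc-/-. All are under the floor of 3 reads per library, and no fold is given.

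Both INK4 genes fell. Cdkn2c (p18; chromosome 4, 109660876 to 109667189, minus strand) was at 5.02, 4.47 and 3.92 FPKM in WT and at 1.96, 1.06 and 1.07 FPKM in those labelled Sphk1/2gc-/-. The means, 4.47 ± 0.548 and 1.36 ± 0.517 FPKM (SD, n = 3), differed by a factor of 3.29, and the groups were apart. The log2 difference was -1.23 (SE 0.185, limma adjusted p = 0.00417), the largest fall among the 8 genes tested. Cdkn2d (p19; chromosome 9, 21288410 to 21291407, minus strand) was at 16.1, 19.2 and 12.8 FPKM in WT and at 11.6, 7.39 and 9.44 FPKM in those labelled Sphk1/2gc-/-, where the highest value was just below the lowest WT value. Its log2 difference was -0.71 (SE 0.207, limma adjusted p = 0.0427). This call was lost with no filter on low genes (adjusted p = 0.0807), with the replicate number as a block (0.0817) and without WT library 1 (0.116), WT library 2 (0.149), labelled Sphk1/2gc-/- library 2 (0.133) or library 3 (0.111). It also fell away without both libraries numbered 3 (0.113). The range over all alternatives was 0.0184 to 0.149.

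The make-up of the inhibitor transcripts shifted accordingly. Over the 5 inhibitors, Cdkn1a made up 24.2% to 46.0% of the summed FPKM in WT cumulus libraries and 65.6% to 79.7% in those labelled Sphk1/2gc-/-. The share of Cdkn2d was 34.6% to 54.4% in the former and 11.0% to 24.7% in the latter. CIP/KIP transcripts summed to 11.7 to 20.3 FPKM in WT and to 33.4 to 58.5 FPKM in those labelled Sphk1/2gc-/-, and INK4 transcripts to 16.8 to 23.7 and 8.45 to 13.5 FPKM. The total over the 5 genes was 35.1 to 37.1 FPKM in WT and 46.9 to 67.0 FPKM in those labelled Sphk1/2gc-/-. In MGCs the total was 52.6 to 76.6 FPKM in WT and 68.9 to 80.5 FPKM in Sphk1/2gc-/-, and Cdkn1a with Cdkn1b led in each of these libraries. These sums are a description, as their parts were compared above and below.

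**Figure D2:**
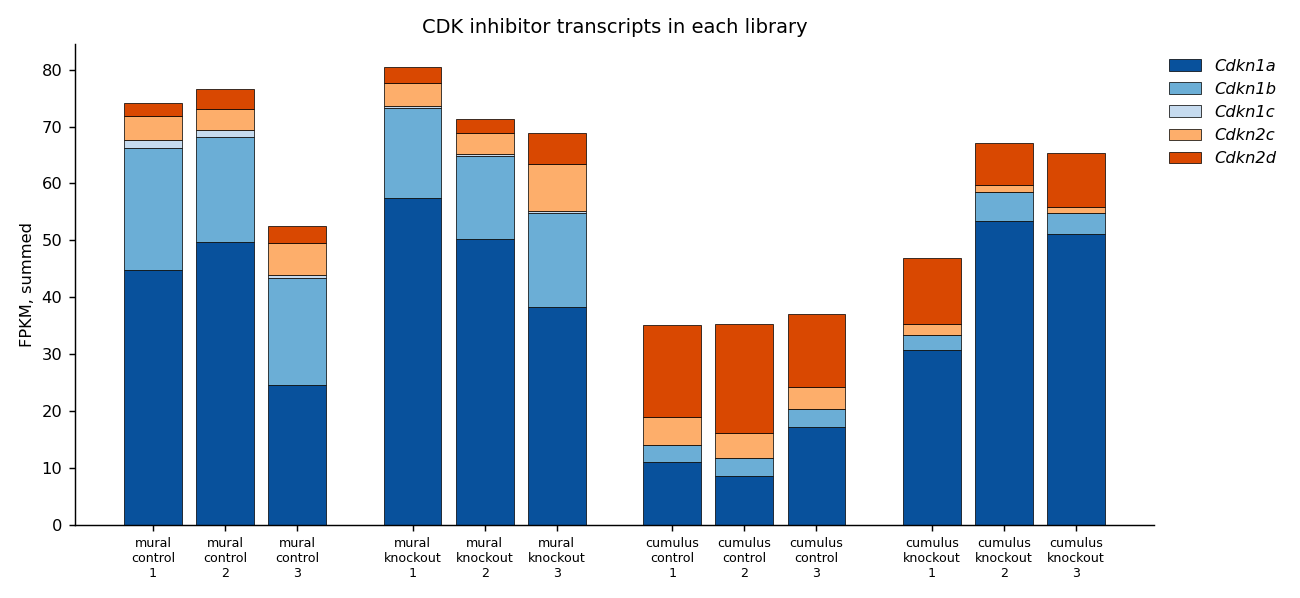
Stacked FPKM (y axis) of the 5 CDK inhibitor transcripts in each of the 12 libraries. Cdkn2d makes up 34.6% to 54.4% of the bar in WT cumulus libraries, and Cdkn1a 65.6% to 79.7% in the cumulus libraries labelled Sphk1/2gc-/-.

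Of the RB family, Rb1 and Rbl1 fell and Rbl2 did not pass. Rb1 (chromosome 14, 73183673 to 73325822, minus strand, with exons that overlap Lpar6 and Rcbtb2) was at 13.3, 8.63 and 8.3 FPKM in WT cumulus libraries and at 3.71, 3.93 and 5.04 FPKM in those labelled Sphk1/2gc-/-, a clear gap between the groups. The means were 10.1 ± 2.8 and 4.23 ± 0.717 FPKM (SD, n = 3), and the log2 difference was -1.06 (SE 0.205, limma adjusted p = 0.00974). Rbl1 (p107; chromosome 2, 157145893 to 157204534, minus strand) was at 9.53, 7.48 and 6.52 FPKM in WT and at 4.26, 3.09 and 3.26 FPKM in those labelled Sphk1/2gc-/-, again without overlap. Its log2 difference was -0.96 (SE 0.181, limma adjusted p = 0.00909), and the call was lost only without both libraries numbered 3 (-1.03, adjusted p = 0.0608). Rbl2 (p130; chromosome 8, 91070057 to 91123844, plus strand, with exons that overlap Aktip and Gm45464) was at 0.526, 0.729 and 0.482 FPKM in WT and at 0.52, 0.368 and 0.255 FPKM in those labelled Sphk1/2gc-/-, with overlap. Its log2 difference was -0.19 (95% interval -0.52 to 0.13, limma adjusted p = 0.351). The 3 genes summed to 15.3 to 23.4 FPKM in WT and to 7.39 to 8.56 FPKM in those labelled Sphk1/2gc-/-.

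The E2F genes were low in cumulus cells. E2f3 (chromosome 13, 29906575 to 29986063, minus strand) was at 1.22, 1.11 and 1.12 FPKM in WT and at 1.07, 1.72 and 2.1 FPKM in those labelled Sphk1/2gc-/-, of which library 1 was below the WT values and the others above. The log2 difference was 0.27 (95% interval -0.13 to 0.67, limma adjusted p = 0.293). E2f1 (chromosome 2, 154559407 to 154569892, minus strand) had 14, 17 and 15 reads in WT (0.276, 0.3 and 0.271 FPKM) and 4, 6 and 15 reads in the libraries labelled Sphk1/2gc-/- (0.0673, 0.0963 and 0.248 FPKM). Every value of the latter was below every WT value, with library 3 close to WT. It was under the filter, and without a filter its log2 difference was -0.18 (SE 0.0731, limma unadjusted p = 0.0462, adjusted p = 0.188).

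**Figure D3:**
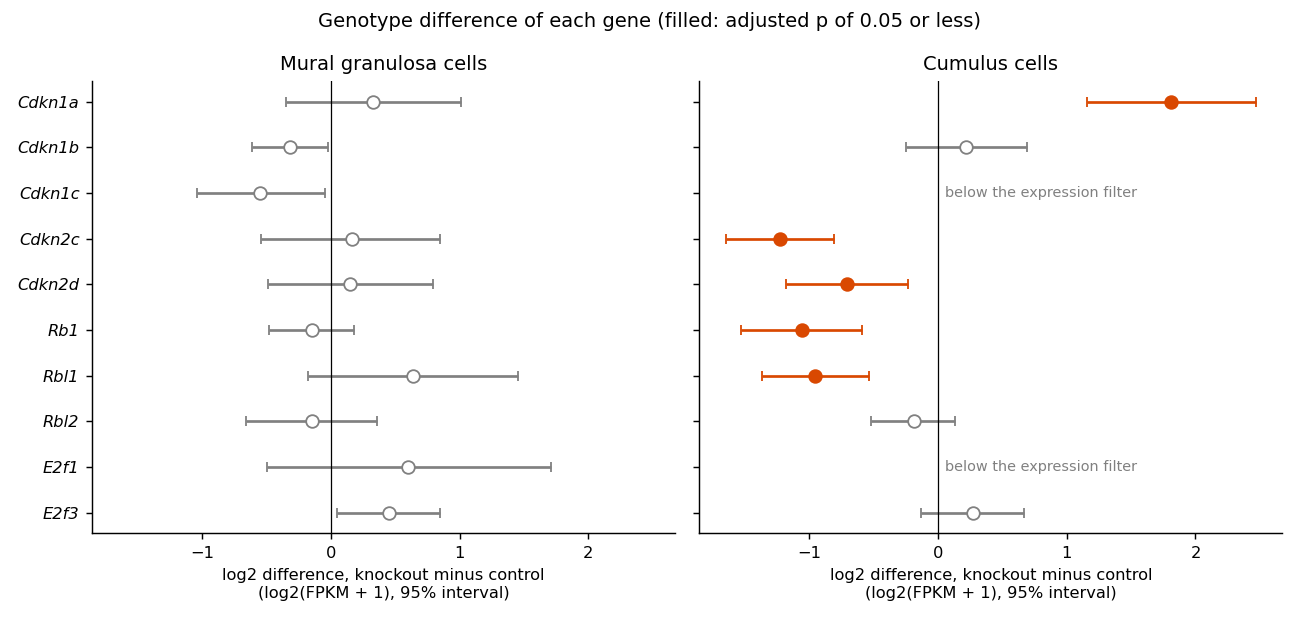
Log2 difference between genotypes on the log2(FPKM + 1) scale (x axis) with its 95% interval from limma for each gene, in mural granulosa cells (left) and cumulus cells (right); filled points passed at an adjusted p of 0.05 or less. Cdkn1a is higher by 1.81 in cumulus cells, where Cdkn2c, Cdkn2d, Rb1 and Rbl1 are lower, and no gene passed in mural granulosa cells.

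Genes that work with these regulators were taken from lists chosen with earlier results of these data known. Of the 25 E2F target genes of S phase, 14 fell in cumulus cells, 0 rose and 11 did not pass, and all 25 differences were below 0 (median -1.0, against -0.06 over all genes). Among all genes tested there, 12.7% passed as lower and 9.66% as higher. Gins1, part of the replicative helicase, was at 63.5 ± 9.11 FPKM in WT and at 23.7 ± 10.4 FPKM in those labelled Sphk1/2gc-/- (log2 difference -1.45). Tk1, thymidine kinase, fell by 1.42, and Pola1, the catalytic subunit of DNA polymerase alpha, fell by 1.37 on the log2 scale. The mean log2(FPKM + 1) of this list was 3.84, 4.05 and 3.91 in WT libraries 1, 2 and 3 and 3.6, 2.71 and 2.79 in the libraries labelled Sphk1/2gc-/-, where library 1 was the nearest to WT. The count of 14 was 23 without that library. It was 8, 7 and 9 without WT library 1, 2 or 3, was 8 and 7 without labelled Sphk1/2gc-/- library 2 or 3, and was 3 without both libraries numbered 3.

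Of the 16 MuvB target genes of G2 and M phase, 12 fell, 0 rose and 4 did not pass (median -1.22, all 16 below 0), while 12.7% of all genes tested fell. Cenpe, a kinetochore motor, went from 31.5 ± 2.42 to 9.97 ± 3.18 FPKM (log2 difference -1.6), Birc5, survivin, fell by 1.5, and Nusap1, a spindle protein, fell by 1.5. The count was 9 to 15 when any 1 library was left out and 4 without both libraries numbered 3. Among the 7 genes of the MuvB core and its partners, 1 fell, Foxm1, the factor that drives mitotic genes, from 1.65 ± 0.0174 to 0.936 ± 0.0365 FPKM (log2 difference -0.45, limma adjusted p = 0.0355). Without labelled Sphk1/2gc-/- library 1 the count was 3, and without any other library it was 0. Lin52, of the core itself, had a mean of 5.84 FPKM in WT and of 3.3 FPKM in those labelled Sphk1/2gc-/- and just missed the threshold (-0.71).

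Of the 15 p53 target genes beside Cdkn1a, 13 were above the filter in cumulus cells, 6 rose and 0 fell (median 0.71). Among all genes tested 9.66% rose and 12.7% fell, with a median of -0.06. Trp53inp1, a stress-induced cofactor of p53, was at 5.95 ± 0.8 FPKM in WT and at 23.4 ± 8.74 FPKM in those labelled Sphk1/2gc-/- (log2 difference 1.74). Gadd45a, a growth arrest gene, rose by 1.56, and Phlda3, an inhibitor of AKT signalling, by 1.29 on the log2 scale. The others that rose were Btg2, Aen and Eda2r. The list summed to 464, 360 and 834 FPKM in WT libraries 1, 2 and 3 and to 941 to 1170 FPKM in those labelled Sphk1/2gc-/-, so that WT library 3 was the nearest to the latter, as it was for Cdkn1a. Most of each sum was Btg2, at 312, 230 and 604 FPKM in WT and at 729, 907 and 637 FPKM in those labelled Sphk1/2gc-/-. The mean log2(FPKM + 1) of the list was 2.77, 2.77 and 3.13 in WT and 3.47 to 3.52 in the latter. The count was 4 to 7 when any 1 library was left out, with 4 without WT library 1 or 2 or labelled Sphk1/2gc-/- library 2 or 3. The well known p53 targets Mdm2 (0.4), Ccng1 (0.23) and Bax (0.07) did not pass.

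In the list of other CDK inhibitors, E2F and DP factors, 7 of 11 genes were above the filter and 2 fell. With 22.3% of all genes passing and 12.7% lower, a count this small is not read as a result about the list. Cdkn3, a phosphatase that acts on CDKs and is itself high in dividing cells, was at 102, 91.8 and 71.6 FPKM in WT cumulus libraries and at 28.8, 29.9 and 25.4 FPKM in those labelled Sphk1/2gc-/- (log2 difference -1.61, SE 0.173, limma adjusted p = 0.00123). Tfdp2, a partner of E2F, went from 2.53 ± 0.253 to 1.44 ± 0.135 FPKM (-0.53, adjusted p = 0.0288). Without any 1 WT library, or without labelled Sphk1/2gc-/- library 2 or 3, 1 gene of this list fell, and 3 fell without labelled library 1 and with limma-voom. Without WT library 3, 1 rose. The repressive E2f7 just missed the threshold (-0.44, limma adjusted p = 0.0511). E2f4 (0.68), E2f5 (-0.2), E2f6 (-0.06) and Tfdp1 (0.17) did not pass. Cdkn2a, Cdkn2b, E2f2 and E2f8 were below the filter, with Cdkn2a listed at 0 in 5 of the 6 cumulus libraries.

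Of the 8 G1 cyclins and their kinases, 7 were tested and 1 rose. Cdk6 was at 46.6, 73.3 and 92.4 FPKM in WT and at 122, 139 and 110 FPKM in those labelled Sphk1/2gc-/- (log2 difference 0.84, limma adjusted p = 0.0424), and no gene of the list rose without any 1 of the libraries other than WT library 3. Without labelled Sphk1/2gc-/- library 1, 2 genes of the list fell. Of the 8 genes for the turnover of p27 and cyclin E, 7 were tested, 2 fell and 1 rose. Cks1b, the cofactor by which SCF-SKP2 recognises p27, went from 215 ± 27.4 to 100 ± 17.1 FPKM (-1.09), Rbx1, the RING subunit of SCF, fell by 0.63, and Fbxw7, the F-box protein for cyclin E, rose by 0.61. Of the 11 FOXO genes and FOXO targets of granulosa arrest, 7 were tested, with Klf4 higher (1.83), Ccng2 lower (-0.97) and 5 that did not pass. Among all genes tested 22.3% passed, 9.66% as higher and 12.7% as lower. Counts as small as those of these lists are not read as apart from that share. Counts of these last 3 lists differed with nearly every library left out: in the turnover list 0 rose without WT library 2 or 3 or labelled library 3, and 1 to 4 fell, and in the FOXO list 0 rose without WT library 1 or 2 or labelled library 2 or 3, and 0 fell without WT library 1 or 3 or labelled library 2 or 3.

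Markers of other cell types were read beside these results, with 9.66% of all genes tested in cumulus cells higher and 12.7% lower. In the libraries labelled Sphk1/2gc-/-, summed FPKM of the 9 theca and stroma markers was 12.3 to 33.9 against 18.1 to 66.4 in WT (2 of 6 tested fell), of the 4 red blood cell markers 0.3 to 1.78 against 4.37 to 26.8 (1 of 4 fell), and of the 8 oocyte markers 1.39 to 1.73 against 1.96 to 5.38 (1 of 3 tested fell). Of the 8 leukocyte markers, with 8.46 to 57.9 against 4.87 to 54.9 FPKM, 1 rose and 1 fell among 5 tested. The 6 endothelial markers were all under the filter (0.211 to 0.962 FPKM in sum). Of the 4 mural markers 2 fell (42.2 to 91.6 against 46.9 to 109 FPKM), of the 10 granulosa markers 5 fell, and of the 7 cumulus markers 3 rose (1090 to 1350 against 324 to 714 FPKM). Their part in the results on the 10 genes was not tested.

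In MGCs the same question gave no call among the 10 genes by limma, although 3 had an unadjusted p under 0.05, as 1406 of all genes tested had (9.2%). Over all 15279 genes tested, 6 passed (0.0393%), and with the replicate number as a block 3 did. The limma-voom fit on recovered reads called 0 of the 10 as well. The groups did not overlap for 3 of the 10, against 16.9% of all genes tested. Cdkn1b was at 21.6, 18.5 and 18.9 FPKM in MGCs of WT mice and at 15.8, 14.5 and 16.5 FPKM in MGCs of Sphk1/2gc-/- mice, each below every WT library. Its log2 difference was -0.32 (SE 0.125, limma adjusted p = 0.513). Cdkn1c was at 1.34, 1.23 and 0.524 FPKM (45, 42 and 18 reads) in WT and at 0.26, 0.463 and 0.38 FPKM (9, 16 and 14 reads) in Sphk1/2gc-/-, where WT library 3 was close to the knockout values. Its log2 difference was -0.55 (SE 0.209, limma adjusted p = 0.5). E2f3 was at 6.1, 7.6 and 7.93 FPKM in WT and at 9.32, 9.12 and 12.2 FPKM in Sphk1/2gc-/-, all above WT, with a log2 difference of 0.45 (SE 0.169, limma adjusted p = 0.499).

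The remaining genes overlapped between genotypes in MGCs. Cdkn1a was at 44.7, 49.7 and 24.5 FPKM in WT and at 57.5, 50.3 and 38.3 FPKM in Sphk1/2gc-/- (log2 difference 0.33, 95% interval -0.35 to 1.01). Rb1 was between 8.27 and 11.0 FPKM in all 6 libraries (-0.15, -0.48 to 0.18), and Rbl2 between 1.91 and 3.58 FPKM (-0.15, -0.66 to 0.36). Cdkn2c was at 4.15, 3.71 and 5.67 FPKM in WT and at 4.17, 3.65 and 8.3 FPKM in Sphk1/2gc-/- (0.16, -0.54 to 0.85). Cdkn2d was at 2.43, 3.52 and 2.94 FPKM in WT and at 2.77, 2.44 and 5.45 FPKM in Sphk1/2gc-/- (0.15, -0.49 to 0.79). For both INK4 genes the highest value was that of Sphk1/2gc-/- library 3.

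The same library set E2f1 and Rbl1. E2f1 was at 2.73, 3.74 and 4.68 FPKM in MGCs of WT mice and at 3.57, 4.04 and 14.3 FPKM in Sphk1/2gc-/- libraries 1, 2 and 3. Rbl1 was at 4.66, 4.16 and 6.1 FPKM in WT and at 5.58, 6.45 and 14.9 FPKM in Sphk1/2gc-/-. Libraries 1 and 2 of the knockout lay within the WT range for E2f1 and around its top for Rbl1, and library 3 was far above it for both genes. The log2 differences were 0.6 for E2f1 (SE 0.465, limma adjusted p = 0.745) and 0.64 for Rbl1 (SE 0.344, adjusted p = 0.626). Without library 3 of the knockout they were 0.05 and 0.24. The 25 S phase genes had a mean log2(FPKM + 1) of 2.93, 3.1 and 4.35 in Sphk1/2gc-/- MGC libraries 1, 2 and 3, against 2.83, 2.88 and 3.19 in WT, and the 16 genes of G2 and M phase had 3.58, 3.62 and 4.43 against 3.42, 3.41 and 3.82. E2f2, an activating E2F, was at 2.13, 1.84 and 7.08 FPKM in these Sphk1/2gc-/- libraries, and at 1.45 to 1.76 FPKM in WT. The summed mural markers ranged from 427 to 921 FPKM in Sphk1/2gc-/- and from 1410 to 1720 FPKM in WT MGCs, with means of log2(FPKM + 1) of 7.53, 7.35 and 6.46 in the former. In Sphk1/2gc-/- library 3 the leukocyte markers had a mean log2(FPKM + 1) of 1.78 against 2.96 to 3.82 in the other MGC libraries. Its red blood cell markers summed to 30.2 against 225 to 396 FPKM and its cumulus markers to 438 against 1280 to 2300 FPKM. The part of this library's make-up in the results was not tested.

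**Figure D4:**
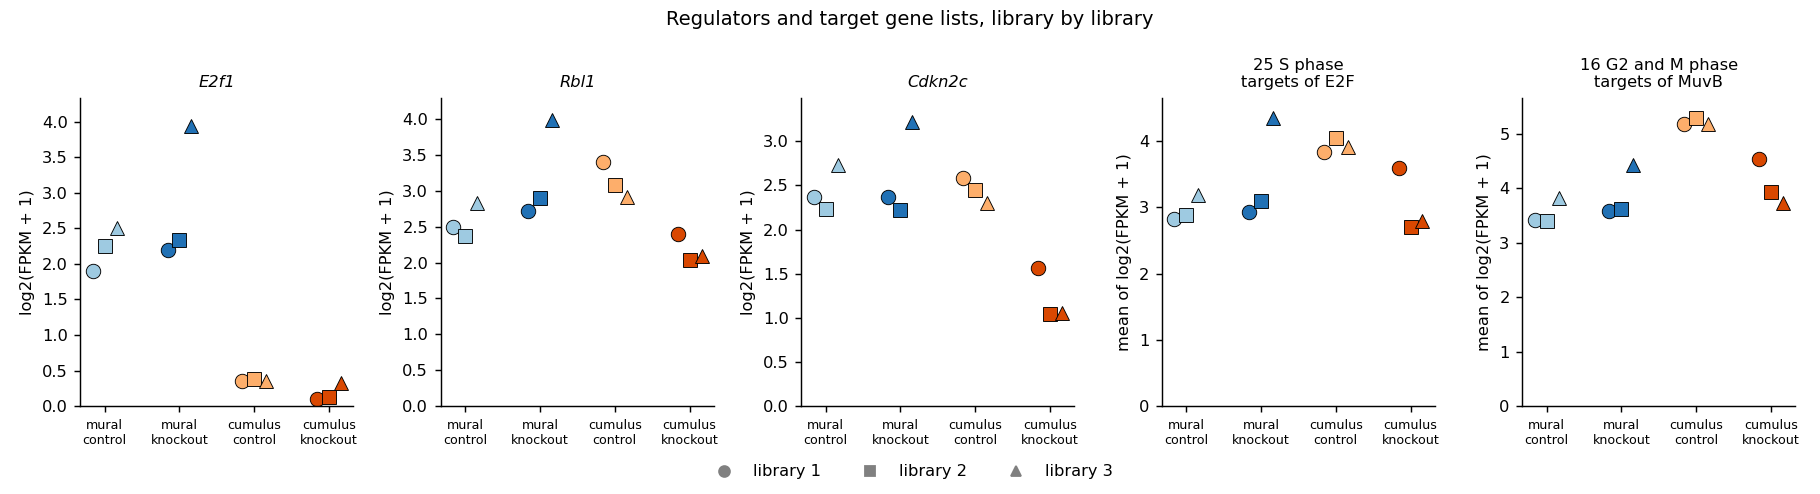
Log2(FPKM + 1) of E2f1, Rbl1 and Cdkn2c and the mean of log2(FPKM + 1) over 25 S phase targets of E2F and 16 targets of MuvB (y axes) in each library, marked by library number. Mural Sphk1/2gc-/- library 3 is the highest mural library in all 5 panels, and the cumulus libraries labelled Sphk1/2gc-/- lie below WT for Rbl1, Cdkn2c and both lists.

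Without Sphk1/2gc-/- library 3, 278 of 15215 genes passed in MGCs (1.83%) and 0 of the 10 did, and the log2 differences were 0.49 for Cdkn1a, -0.36 for Cdkn1b, -0.55 for Cdkn1c, -0.15 for Cdkn2c, -0.13 for Cdkn2d, -0.23 for Rb1, -0.31 for Rbl2 and 0.32 for E2f3. With both libraries numbered 3 left out 2486 of 15433 passed (16.1%) and 1 of the 10 did. That gene was Cdkn1c (log2 difference -0.75, SE 0.144, limma adjusted p = 0.0358). In that fit the differences of Cdkn1b (-0.38, adjusted p = 0.0652), Rbl1 (0.37, 0.0821) and E2f3 (0.39, 0.0846) did not pass. None of the 100 genes tested from the 8 lists passed limma in MGCs over all 6 libraries, and 11 had an unadjusted p under 0.05, a share close to the 9.2% over all genes. The S phase list had a median log2 difference of 0.41 with all 25 above 0, and of 0.04 with 14 above 0 without Sphk1/2gc-/- library 3. For the list of G2 and M phase these medians were 0.31 (16 of 16 above 0) and 0.04 (10 of 16). The FOXO list had a median of -0.59 with 10 of 11 below 0, and of -0.3 with 10 of 11 below 0 without that library. Its summed FPKM was 718 to 749 in WT and 314 to 591 in Sphk1/2gc-/-, with Cited2 the largest part of each sum. Its mean log2(FPKM + 1) overlapped, at 4.2 to 4.93 in WT and 3.69 to 4.23 in Sphk1/2gc-/-. Pik3ip1 of this list was at 16.9, 20.4 and 3.35 FPKM in WT libraries 1, 2 and 3 and at 1.39 to 2.54 FPKM in Sphk1/2gc-/-. The largest differences in size were 0.96 for Rrm2 and 0.93 for Cdc6 of the S phase list, 0.73 for Top2a and 0.55 for Bub1 of the mitotic list, 0.5 for Mybl2 and 0.49 for Foxm1, 1.13 for Ccne1 and 0.76 for Ccne2, 0.61 for Skp2 and 0.14 for Cul1, -0.73 for Gadd45a and 0.62 for Gtse1, and -2.06 for Pik3ip1 and -0.84 for Klf4. Of the other CDK inhibitors, E2F and DP factors, E2f2 (0.66), E2f8 (0.55), Tfdp1 (0.45), E2f6 (0.4), E2f7 (0.33), E2f4 (0.29) and Cdkn3 (0.22) were above 0 and Cdkn2b (-0.45), Tfdp2 (-0.33) and E2f5 (-0.08) below.

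Whether the genotype difference itself differed between the cell types was tested as an interaction over all 12 libraries. None of the 10 genes passed, against 624 of 15869 genes (3.93%), while 6 of the 10 had an unadjusted p under 0.05, against 22.1% of all genes. The nearest were Rbl1 (cumulus difference minus mural difference -1.6 on the log2 scale, SE 0.406, limma adjusted p = 0.0511), Cdkn2c (-1.39, SE 0.361, adjusted p = 0.0558), Rb1 (-0.91, SE 0.254, adjusted p = 0.0669) and Cdkn1a (1.48, SE 0.44, adjusted p = 0.0799). Without MGC Sphk1/2gc-/- library 3, 1022 of 15842 genes passed (6.45%), and Rbl1 (-1.2, limma adjusted p = 0.0246) and Cdkn2c (-1.08, adjusted p = 0.0418) were among them. Rbl1 and Cdkn2c also passed with a filter at a mean of 1 FPKM, with median centring and with limma-voom on recovered reads. Of the lists, Cdkn3, 2 S phase genes and 7 genes of G2 and M phase passed as more negative in cumulus cells, 3 p53 target genes as more positive, and 0 of the other lists. Hence the calls in cumulus cells do not by themselves show a difference from MGCs, and the answer turned on the settings. Cdkn1a also passed without MGC WT library 3 (1.78) or labelled Sphk1/2gc-/- cumulus library 1 (1.73), Cdkn1c without MGC WT library 3 (0.7), and Rb1 without the libraries numbered 3 (-1.12, limma adjusted p = 0.0439), where Rbl1, Cdkn2c, Cdkn1a and Cdkn1c passed too. Cdkn1c had at most 2 reads in any cumulus library, under the floor, so its cumulus difference could not be measured. Its calls here, and its unadjusted p under 0.05 over all 12 libraries, restate its mural difference and show no difference between cell types.

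The control groups were then compared with each other, WT cumulus cells against WT MGCs, in the same model. Of the 10 genes, 7 passed, Cdkn2d as higher in cumulus cells and Cdkn1a, Cdkn1b, Cdkn1c, Rbl2, E2f1 and E2f3 as lower. This was set against 76.6% of all 15869 genes tested, 24.1% as higher and 52.5% as lower, so that a call in this comparison is common. The groups did not overlap for 8 of the 10, against 82.1% of all genes. The median difference of all genes was -0.54, and after centring of each library on its median 62.7% of the calls were higher rather than 31.4%. Both values are therefore given. Cdkn2d was higher by 2.1 (SE 0.247, limma adjusted p = 8.74e-06; centred 2.9), with means of 16.1 ± 3.19 against 2.96 ± 0.548 FPKM (SD, n = 3). Cdkn1b showed the largest difference in the other direction, -2.35 (SE 0.176, limma adjusted p = 1.73e-07; centred -1.55), with 3.05 ± 0.201 against 19.7 ± 1.69 FPKM.

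The log2 difference of WT cumulus cells from WT MGCs was -1.93 for E2f3 (centred -1.12), -1.86 for E2f1 (centred -1.06), -1.61 for Cdkn1a (centred -0.81) and -1.37 for Rbl2 (centred -0.57). These kept their call under both scalings. Cdkn1c had a log2 difference of -0.96, which was no longer called after centring (-0.15, limma adjusted p = 0.339). Its 1, 0 and 2 reads in WT cumulus libraries against 45, 42 and 18 in WT MGCs show the same direction. Rb1 (-0.02, centred 0.78), Cdkn2c (0.0, centred 0.8) and Rbl1 (0.57, centred 1.37) passed as higher only after centring, and Rb1 changed sign there. WT cumulus cells at the same time held more transcripts of the target lists, with 13 of 25 S phase genes higher and 2 lower (median 0.93) and 11 of 16 genes of G2 and M phase higher and 1 lower (median 1.92). After centring 17 and 15 were higher and 1 of each was lower. The leading genes were Gins1 (3.79), Slbp (3.5) and Rpa2 (3.36) of the former and Birc5 (4.21), Ube2c (3.6) and Aurka (3.14) of the latter.

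**Figure D5:**
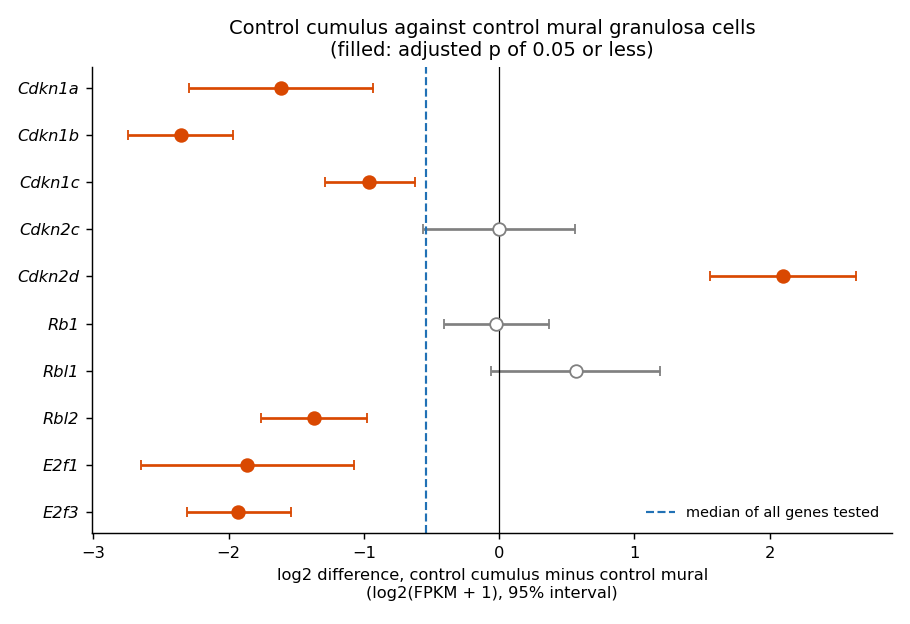
Log2 difference of WT cumulus cells from WT mural granulosa cells (x axis, log2(FPKM + 1) scale) with its 95% interval for each of the 10 genes; the dashed line is the median of all genes tested, -0.54, and filled points passed at an adjusted p of 0.05 or less. Cdkn2d is on the right at 2.1, and Cdkn1b, E2f3, E2f1, Cdkn1a, Rbl2 and Cdkn1c are on the left.

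Partners of these regulators differed between the control cell types in both directions, where 24.1% of all genes tested passed as higher and 52.5% as lower. Cdkn3 was higher by 4.37 and E2f5 by 1.3 in WT cumulus cells, and E2f4, the main E2F of resting cells (-2.14), E2f8 (-0.91), E2f2 (-0.85), E2f7 (-0.83) and Tfdp2 (-0.68) were lower, while E2f6, Tfdp1 and Cdkn2b did not pass. After centring 5 genes of this list were higher and 1 was lower, so that its direction turned with the scaling. Among G1 cyclins and kinases 5 were higher, led by Ccne2 (3.75), Cdk6 (2.52) and Ccne1 (1.47), and 2 lower. For the turnover of p27 and cyclin E 6 were higher and 1 lower, led by Skp1 (2.96), Cks1b (2.85) and Rnf123 (-2.58). In the MuvB core and its partners 3 were higher and 3 lower, led by Rbbp4 (-1.89), Foxm1 (-1.42) and Lin52 (0.91). Of the p53 targets 3 were higher and 9 lower, led by Trp53inp1 (-3.38), Bax (2.27) and Sesn2 (-1.84), and of the FOXO list 10 of 11 were lower, led by Cited2 (-4.04), Irs2 (-3.58) and Pik3ip1 (-3.36). After centring 5 p53 targets were higher and 4 lower, and 1 gene of the FOXO list was higher and 8 lower. WT MGC libraries also held more of the markers of other cells: all 9 of theca and stroma, all 6 of endothelium, all 8 of leukocytes, 3 of 4 of red blood cells and all 7 tested of the oocyte passed as lower in WT cumulus cells. Their part in the differences of the 10 genes was not tested.

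As a description, the genes whose log2(FPKM + 1) followed each regulator most closely over the 12 libraries were listed among the 8184 genes whose mean was 1 FPKM or more in all groups. The points share cell type and genotype, and how much of each correlation comes from either was not computed. Rbl1 was most like Clspn (r = 0.951), Cdc7 (0.951) and Ttf2 (0.949). Cdkn2c was most like Hmgb1-ps2 (0.971), Ncapg2 (0.969) and Stil (0.969), and Cdkn2d like Stx12 (0.99), Gins1 (0.988) and Mtg1 (0.987). Cdkn1a was most like Thbs1 (0.984), Nck2 (0.967) and Synj1 (0.96), and Rb1 like Stag2 (0.963), Zfp711 (0.956) and Bmpr1b (0.939). Genes most like Cdkn1b included Arf3 (0.993) and Eif4ebp2 (0.992). For Cdkn1c they included Rasl11b, Cald1 and Cyp4f13 (0.964 to 0.967), for Rbl2 Tmem9 and Dhx16 (0.992 and 0.991), for E2f1 Slc35e1, Tcof1 and Vars (0.989 to 0.99) and for E2f3 Man1a2, Sec24c and Ltbr (0.993 to 0.994).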

How the data were processed

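RNA of mural granulosa cells (MGCs) and cumulus cells was sequenced by the authors, who deposited FPKM values, 1 table per cell type. The labels' processing notes name HISAT2 and GRCm38; versions and the counting tool are not given in the sources used here. The library kit is not stated to keep strand. Gene names, exons and positions came from GENCODE M21 (GRCm38). FPKM times exon length gave whole reads for 90.4% to 91.9% of each library's nonzero values (within 0.02 reads), though not for Cdkn1a, and 99.6% of 9321 genes compared fitted the same exon length in both tables. Depth was 16100359 to 19761603 reads, so that 3 reads were taken as the floor; counting error only is covered by it.

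Genotypes were compared with limma 3.58.1 (R 4.3.3, trend) on log2(FPKM + 1), leaving out genes whose mean was under 0.5 FPKM in every group compared, and p was adjusted by Benjamini-Hochberg over all genes left. An interaction and the contrast of the control groups came from 1 model of all 12 libraries. The code was tested on simulated data. Named are all 10 genes, Sphk1 and Sphk2, every gene of the list of other inhibitors, E2F and DP factors, up to 3 genes of each other list per comparison with the largest change among those that passed (the 2 largest if none did) and the 3 genes most like each regulator; others named were chosen after their values were seen. Some genes that this rule names are not reported here. The genes and the lists were chosen with earlier results of these data known. In MGCs, libraries of the same number correlated at 0.22, 0.158 and 0.224 after removal of group means. WT library 1 and Sphk1/2gc-/- library 2, of different numbers, correlated at 0.155. In cumulus cells the same-number values were -0.148, -0.0511 and 0.115. The labels state no shared animal. The reported tests leave the number out, and fits with it as a block are an alternative. Nothing states separate animals behind the libraries, so that p-values measure the spread between these libraries. Alternatives were another pseudocount, other filters, no trend, median centring, limma-voom on recovered reads, the block and leaving out libraries.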

Additional observations from a re-analysis of the deposited data

Results flagged for a closer look

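Groups of 3 libraries are too small for a test of single outlying libraries. Among the genes named from the lists, the 8 given here had a genotype difference that itself differed between the cell types (interaction in limma, adjusted p from 0.0126 to 0.0375). The cumulus difference minus the mural difference on the log2 scale was -2.11 for Top2a, -1.96 for Bub1 and -1.88 for Birc5 of the mitotic list, -1.69 for Pola1 of the S phase list and -1.83 for Cdkn3. It was 2.29 for Gadd45a, 2.24 for Trp53inp1 and 0.95 for Eda2r of the p53 list. Each of the 8 passed in cumulus cells and not in mural granulosa cells. Without mural Sphk1/2gc-/- library 3 all 8 passed again, with values from -1.98 (Top2a) to 1.97 (Gadd45a). The test leaned on single libraries: without any 1 of WT mural library 1 or 2, WT cumulus library 1 or 2 or labelled Sphk1/2gc-/- cumulus library 2 or 3, 0 genes of the p53 list and 0 of the S phase list passed it, against 3 and 2 with all libraries, Cdkn3 did not pass either, and 3 or 4 of the mitotic list did, against 7.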

How the results depend on the processing

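In cumulus cells the count of 2725 genes that passed was 715 without the libraries numbered 3 of both genotypes, with 3 of the 10 regulators, and 1319 to 3930 without any 1 library. In mural granulosa cells the count of 6 was 1 with no filter on low values, 1 with median centring, 0 with limma-voom, 3 with the replicate block, 0 to 278 without any 1 library and 2486 without both libraries numbered 3, where 1 regulator passed. The interaction count of 624 was 330 with no filter, 108 to 1189 without any 1 library and 1579 without the libraries numbered 3 of both genotypes. The number of regulators that passed it, 0, was 1 with a pseudocount of 0.1, 2 with a filter at a mean of 1 FPKM, 2 with median centring, 2 with limma-voom, 0 to 4 without any 1 library and 5 without the libraries numbered 3. Cdkn1c, counted in the 5, had at most 2 reads in any cumulus library, so its call rests on its mural values alone. Signs turned for differences near 0. In mural cells, leaving out any 1 library gave -0.31 to 0.02 for Rbl2, -0.15 to 0.35 for Cdkn2c and -0.13 to 0.33 for Cdkn2d, and leaving out both libraries numbered 3 gave -0.01 for Cdkn2c and -0.13 for Cdkn2d; Sphk1/2gc-/- library 1 turned Rbl2 and library 3 the INK4 genes. In the interaction E2f3 was 0.03 with limma-voom, and Rbl2 was -0.21 to 0.11 without any 1 library and 0.24 without the libraries numbered 3. Between the control cell types Rb1 was 0.78 with median centring, 0.38 with limma-voom, -0.22 to 0.09 without any 1 library and 0.16 without the libraries numbered 3, and Cdkn2c was -0.11 to 0.15 without any 1 library. The causes were not tested. Beyond the count of 6 in mural cells and Cdkn2d in cumulus cells, the replicate block changed no call on the regulators. Depth limits Cdkn1c and E2f1 in cumulus cells, with at most 17 reads in a library.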
